A study of Mus musculus with 12 samples.

Results

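The 9 genes described here encode surface and endosomal receptors with which macrophages take up modified lipoproteins, bacteria, dying cells, glycoproteins and folate: Mrc1, Msr1, Marco, Cd36, Cd163, Scarb1, Stab1, Folr2 and Cd68. They were chosen by name, as the spots whose gene name on the array equals 1 of these symbols, and each gene was read by the probe with the highest mean log2 processed signal over the 12 arrays. Of the 9 genes 8 passed the filter on dim probes, among 20459 genes tested in all. Cd163 did not pass it.

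The cells were bone marrow-derived macrophages of female C57BL/6 mice aged 6 to 8 weeks, grown for 7 days in medium conditioned by L929 cells, a fibroblast line that secretes macrophage growth factor. RNA was read on single-colour arrays in 4 groups of 3, and the design text speaks of 3 independent experiments. Untreated macrophages had no lipopolysaccharide (LPS, a bacterial cell wall component that activates macrophages through TLR4). Acute macrophages had LPS for 4 h. Tolerant macrophages were exposed for 8 h, left without LPS for 16 h and exposed a second time for 4 h. Recovered macrophages had the same 2 exposures with a rest of 88 h between them according to the sample descriptions, while the treatment protocol gives 2 to 4 days. The LPS dose is not given in the labels. By the labels, recovered and tolerant cells had the same exposures and differed in the length of the rest, and so in the time in culture. Recovered and acute cells shared the last exposure, and the earlier exposure and the longer culture cannot be told apart between them. Against untreated cells the last exposure cannot be told apart from these either, since untreated controls matched for culture time were not analysed here.

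Scavenger receptors bind polyanionic ligands such as oxidised low density lipoprotein, lipoteichoic acid and LPS, and hand them to endosomes. The mannose receptor clears glycoproteins that carry mannose, fucose or sulphated sugars and recycles through the same route. Folate receptor beta is a lipid-anchored receptor that marks subsets of tissue macrophages. Mrc1, Folr2, Stab1 and Cd163 are commonly used as labels of resident or alternatively activated macrophages, while Marco and Msr1 are known as receptors that inflammatory stimuli can raise. An array of this kind measures transcript levels in a population, so fewer cells that make a transcript and less of it per cell cannot be told apart.

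Levels below are log2 processed signals after each array was set to a common 75th percentile, and a difference of 1 is a doubling. A level is that of 1 probe and cannot be compared with the level of another gene. Differences are given with their standard error from limma, and the threshold for a call was an adjusted p of 0.05 (Benjamini-Hochberg over all genes tested). The depth of an array is not a read number. The share of spots well above background was 47.8% to 55% by array, and 0 spots were saturated. The number of arrays, 3 a group, limits the precision of all values. All 8 macrophage markers, such as Adgre1 and Csf1r, were well above background on all 3 arrays of each group. Of the 7 neutrophil markers on the array 3 were well above background on all 3 arrays of each group, while S100a9, Ngp and Ltf were so on none. Of the 7 stromal markers 1 was well above background on all 3 arrays of untreated cells and 3 were so in each LPS group. Col1a1, Pdgfra and Lum were so on none of the arrays. Of the 6 dendritic cell markers 2 were so in untreated, acute and recovered cells and 3 in tolerant cells, while Xcr1 was so on none.

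In recovered macrophages 4 of the 8 measured receptor genes were higher than in untreated cells, namely Mrc1, Msr1, Folr2 and Cd68, where 35.4% of all genes were called and 18.5% were higher. Of these, Mrc1, Msr1 and Folr2 were also higher than in acute cells, where 2.04% of all genes were called. In tolerant macrophages Msr1 was higher and Mrc1 lower than in untreated cells (19.9% of all genes called). In acute macrophages Msr1 was the receptor gene that passed the test (29.3%). Cd36, Scarb1 and Stab1 were called in none of the 6 comparisons by limma, with the unadjusted p of Scarb1 and Stab1 under 0.05 in acute against untreated cells (0.0184 and 0.0357) and that of Scarb1 also in recovered against untreated cells (0.0356). With the replicate number as a block, limma called Cd36 in 3 comparisons with tolerant cells (adjusted p = 0.00296 to 0.0427) and Scarb1 and Stab1 in acute against untreated cells (adjusted p = 0.037 and 0.0206).

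Promoter sequences are shown for the 3 of the rising genes that have an entry in the promoter table, because these transcripts were all higher in recovered cells. RefSeq promoter sequences (GRCm38.p6) were found for 7 of the 9 genes, and the entries of Mrc1, Folr2 and Cd68 are given as the 150 bases just before the start, 5′ to 3′ in the direction of the gene, with the PU.1 core GAGGAA and the AP-1 motif TGANTCA in capitals on either strand.
Mrc1, chr2:14229264-14229413, plus strand: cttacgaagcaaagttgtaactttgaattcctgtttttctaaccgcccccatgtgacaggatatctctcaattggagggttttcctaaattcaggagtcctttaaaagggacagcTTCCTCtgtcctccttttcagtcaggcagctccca
Folr2, first listed start, chr7:101857191-101857340, minus strand: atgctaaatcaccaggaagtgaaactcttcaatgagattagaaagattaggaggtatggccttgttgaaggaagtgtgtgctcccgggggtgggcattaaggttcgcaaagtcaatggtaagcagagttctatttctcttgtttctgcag
Folr2, second listed start, chr7:101845332-101845481, minus strand: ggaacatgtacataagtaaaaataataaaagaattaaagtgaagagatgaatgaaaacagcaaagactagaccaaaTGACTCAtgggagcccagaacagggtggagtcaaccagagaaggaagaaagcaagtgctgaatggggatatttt
Cd68, chr11:69666171-69666320, minus strand: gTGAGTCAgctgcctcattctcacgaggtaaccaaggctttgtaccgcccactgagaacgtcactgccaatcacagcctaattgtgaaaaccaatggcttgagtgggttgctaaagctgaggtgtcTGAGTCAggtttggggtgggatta

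PU.1 is the transcription factor of the myeloid lineage, and AP-1 is a family of factors that act downstream of LPS signalling. The PU.1 core stood in the windows of Mrc1, Marco and Stab1 and in 14.5% of 32851 promoter windows of the same length. The AP-1 motif stood in the windows of Cd68 (2 matches) and of the second listed start of Folr2 (1 match), and in 4.24% of all windows. The first listed start of Folr2 held neither. Another 6 motifs were searched on both strands: NF-kB (35.4% of all windows; Mrc1, Marco, Cd163), E-box CANNTG (47.7%; Mrc1, Cd36, Stab1, Folr2, Cd68), the MARE core TGCTGA (10.1%; Cd36, Stab1, Folr2), C/EBP TTGCNNAA (5.46%; Cd68), and the interferon element (ISRE, 1.59%) and STAT motif TTCNNNGAA (4.09%), which matched in none of these windows. In Cd68 and in the second start of Folr2 an E-box match overlapped an AP-1 match. The motifs were chosen with the expression values known, and a match is a run of letters, not a site at which binding was measured.

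**Figure D1:**
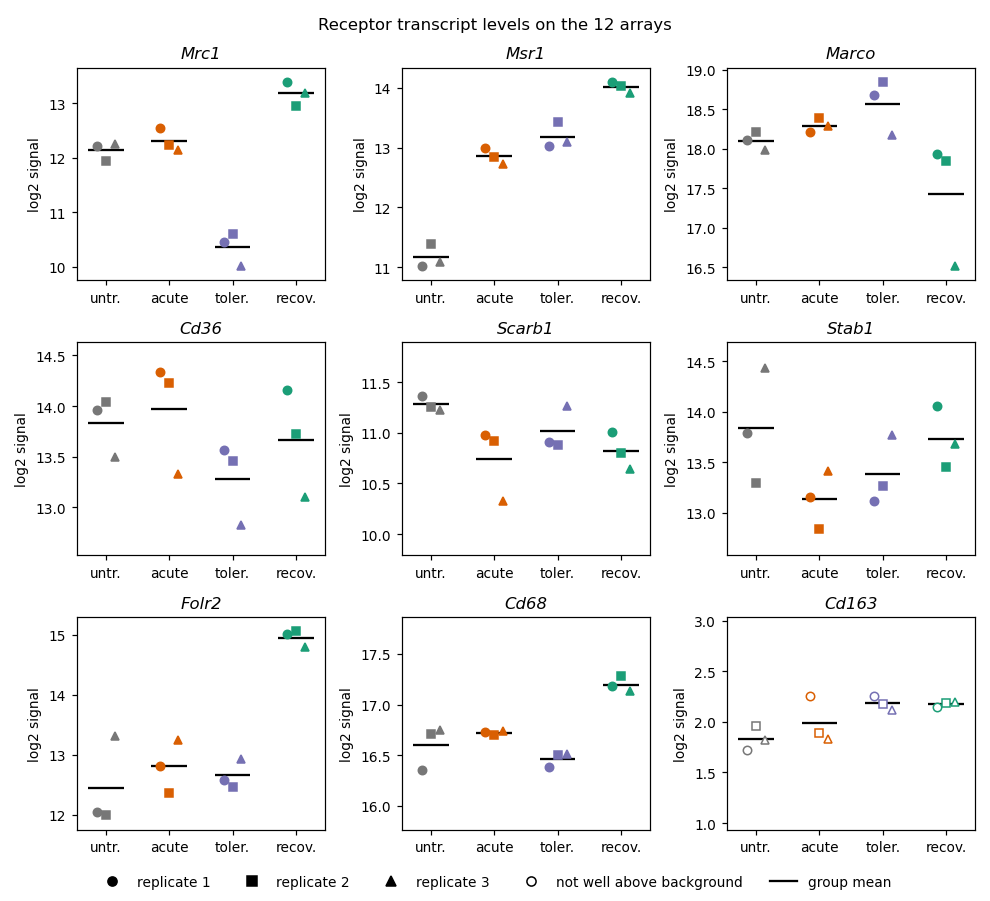
Log2 signal of each receptor gene (vertical axis, log2 units) on each of the 12 arrays in untreated, acute, tolerant and recovered macrophages, with symbols for the replicate number, open symbols for values not well above background and bars for group means. Recovered cells stand above all other arrays for Mrc1, Msr1, Folr2 and Cd68, tolerant cells stand below all others for Mrc1, and Cd163 is open on all arrays.

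Msr1 encodes scavenger receptor A, a trimeric receptor with a collagen-like stalk that takes up acetylated and oxidised lipoproteins and binds bacterial surface molecules. Its probe lies at 40689158 to 40689217 of chromosome 8 on mm9, minus strand. Msr1 read 11.02, 11.38 and 11.08 in untreated cells, 12.99, 12.85 and 12.73 in acute cells, 13.02, 13.43 and 13.10 in tolerant cells and 14.10, 14.03 and 13.91 in recovered cells. The 3 arrays of each LPS group lay above all untreated arrays, and the recovered arrays lay above all others. The mean rose from 11.16 ± 0.19 (SD, n = 3) in untreated cells to 12.86 ± 0.13 in acute, 13.18 ± 0.22 in tolerant and 14.01 ± 0.10 in recovered cells.

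Against untreated cells Msr1 rose by 1.70 ± 0.16 in acute cells (3.24-fold, limma adjusted p = 1.07e-05), by 2.02 ± 0.16 in tolerant cells (4.06-fold, adjusted p = 6.21e-06) and by 2.85 ± 0.16 in recovered cells (7.22-fold, adjusted p = 1.7e-07). It was the 1 member called of 8 in acute against untreated cells, where 29.3% of all genes were called. Tolerant and acute cells, neighbours in the order of levels with a gap of 0.03 between their arrays, did not differ by the test (0.32, 95% interval -0.02 to 0.67, adjusted p = 0.167). Tolerant cells were higher within each of the 3 replicate numbers (0.03 to 0.58), and the difference was called with the slide as a block (adjusted p = 0.0438). Recovered cells exceeded acute cells by 1.15 ± 0.16 (adjusted p = 0.0101) and tolerant cells by 0.83 ± 0.16 (adjusted p = 0.00454). Within a replicate number the excess over acute cells was between 1.11 and 1.18, and that over tolerant cells between 0.60 and 1.08. The excess over acute cells lost its call without acute replicate 2 (1.15, adjusted p = 0.056) or recovered replicate 1 (1.11, adjusted p = 0.0509).

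A second Msr1 probe gave the same order of group means, with 10.12, 10.75 and 10.83 in untreated cells and 12.96, 12.93 and 13.14 in recovered cells. It rose by 1.29, 1.88 and 2.44 in acute, tolerant and recovered cells (adjusted p = 0.000407, 5.67e-05 and 2.9e-06 in the limma fit over all probes). Its difference between recovered and tolerant cells was 0.57 ± 0.19 and was not called (adjusted p = 0.0634). The call of the brighter probe for that difference was also lost with arrays centred on their medians (0.64, adjusted p = 0.0613).

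**Figure D2:**
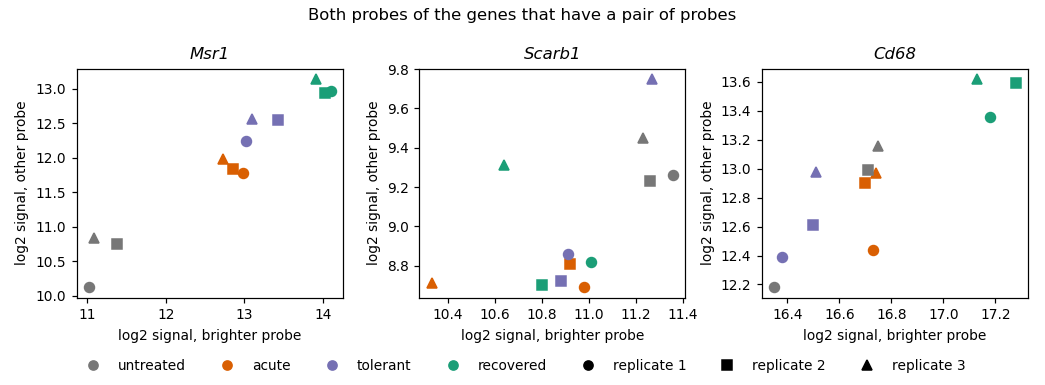
Log2 signal of the brighter probe (horizontal axis) against that of the other probe (vertical axis) on the 12 arrays, for the 3 receptor genes with 2 probes, with colours for groups and symbols for replicate numbers. Both probes of Msr1 separate untreated from recovered cells, both probes of Cd68 place recovered cells highest, and both probes of Scarb1 place the acute arrays below all untreated arrays, with tolerant arrays spread across both.

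Marco, a class A receptor of the same fold that binds bacteria and inhaled particles, was lowest in recovered cells. Its probe is listed at 122371115 to 122371134 of chromosome 1 on mm9, minus strand. Marco read 18.11, 18.22 and 17.99 in untreated cells, 18.21, 18.39 and 18.29 in acute cells, 18.68, 18.85 and 18.18 in tolerant cells and 17.93, 17.85 and 16.52 in recovered cells. All 3 recovered arrays lay below all other arrays, and replicate 3 of the recovered group was the lowest of the 12.

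Recovered cells had less Marco transcript than tolerant cells by 1.14 on the log2 scale (-1.14 ± 0.32, 2.2-fold lower, limma adjusted p = 0.0298). Without recovered replicate 3 the difference was -0.68 (adjusted p = 0.0487), and without tolerant replicate 1 or 2 it was -1.08 or -1.0 and not called (adjusted p = 0.0877 and 0.0971). It was also not called with no filter on dim probes (adjusted p = 0.0607) or in a fit of only the 2 groups (adjusted p = 0.0861). The differences from untreated cells (-0.68, 95% interval -1.39 to 0.03, adjusted p = 0.13) and from acute cells (-0.86, -1.57 to -0.15, adjusted p = 0.241) did not pass the test. The difference from acute cells was called with the slide as a block (-0.97, adjusted p = 0.0409) and with the authors' values (-0.90, adjusted p = 0.0199). The difference from untreated cells was called with the replicate number as a block (adjusted p = 0.0446) and with the slide as a block (-0.78, adjusted p = 0.0222). Quantile normalization (-0.91, adjusted p = 0.0189) and the authors' own normalized values (-1.01, adjusted p = 0.000667) also called it. The values of Marco in acute and tolerant cells against untreated cells were 0.19 (adjusted p = 0.753) and 0.46 (adjusted p = 0.38), neither of them called. The tolerant value was called without the second scan day (0.60, adjusted p = 0.0272). Tolerant against acute cells (0.28, adjusted p = 0.579) was called with the authors' values (0.53, adjusted p = 0.0388).

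A test of the difference between Msr1 and Marco was not made, since they are read by different probes. In recovered against tolerant cells both passed the test, Msr1 as higher and Marco as lower. Of the 8 members 5 were called in that comparison, 4 higher and 1 lower, against 20.6% of all genes called.

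Mrc1 encodes the mannose receptor CD206, whose C-type lectin domains bind mannose and fucose and whose cysteine-rich domain binds sulphated sugars. Its probe lies at 14253273 to 14253332 of chromosome 2 on mm9, plus strand. Mrc1 read 12.22, 11.94 and 12.26 in untreated cells, 12.55, 12.23 and 12.15 in acute cells, 10.46, 10.60 and 10.02 in tolerant cells and 13.39, 12.95 and 13.19 in recovered cells. Untreated and acute arrays overlapped, tolerant arrays lay at least 1.34 below all of the others and recovered arrays lay above all of the others.

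Acute cells differed from untreated cells by 0.17 ± 0.19 (95% interval -0.25 to 0.60, limma adjusted p = 0.592). Mrc1 was lower in tolerant than in untreated cells (-1.78 ± 0.19, 3.43-fold lower, adjusted p = 7.89e-05) and lower than in acute cells (-1.95 ± 0.19, 3.87-fold lower, adjusted p = 9.18e-05). In recovered cells it was 2.05-fold higher than in untreated cells (1.04 ± 0.19, adjusted p = 0.00151) and 7.05-fold higher than in tolerant cells (2.82 ± 0.19, adjusted p = 2.61e-05). Within replicate numbers the excess over tolerant cells was between 2.35 and 3.17. The order of the group means was tolerant, untreated, acute and recovered, and only the neighbours untreated and acute did not differ by the test.

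The excess of Mrc1 in recovered over acute cells was 0.87 ± 0.19 (1.82-fold, adjusted p = 0.0489), just inside the threshold. It was between 0.72 and 1.04 within replicate numbers and not called in 11 of the 12 fits that left out a single array (0.76 to 0.99, adjusted p between 0.0571 and 0.176). It was also lost with median centring (0.76, adjusted p = 0.219), the authors' values (adjusted p = 0.172), no filter on dim probes (adjusted p = 0.0969), without the second scan day (0.78, adjusted p = 0.104) and with only the 2 groups fitted (adjusted p = 0.0958). The call of recovered against untreated cells was lost with the authors' values (0.83, adjusted p = 0.069).

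Of 7 genes in the mannose receptor and LAMP families 4 were measured. Of the 4, 2 rose in recovered against untreated cells with a list median of 0.47 beside 0.06 over all genes. Over all genes 18.5% were higher in that comparison. Pla2r1, a mannose receptor family member that binds secreted phospholipases, was at least 3.94-fold higher in recovered than in untreated cells (adjusted p = 0.000327). Its untreated and tolerant arrays were not well above background. Pla2r1 passed the filter on dim probes only through acute and recovered cells, so its rise is not independent of that filter. The bound is for the processed signal. The log2 change was 0.9 with normexp background and 1.2 with the authors' values, both called. Lamp2, a lysosome membrane protein, rose by 0.72 ± 0.13 (adjusted p = 0.00119). In tolerant against untreated cells, where 19.9% of all genes were called, limma called 0 of the 4, and 1 had an unadjusted p under 0.05. With the replicate block 1 was called.

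Folr2, folate receptor beta, was the receptor gene with the largest difference between recovered and acute cells. Its probe lies at 108988771 to 108988830 of chromosome 7 on mm9, minus strand. Folr2 read 12.04, 11.99 and 13.32 in untreated cells, 12.82, 12.37 and 13.25 in acute cells, 12.58, 12.47 and 12.93 in tolerant cells and 15.02, 15.06 and 14.79 in recovered cells. The first 3 groups overlapped, and the recovered arrays stood at least 1.47 above all others. Replicate 3 was the highest of its group in untreated, acute and tolerant cells and the lowest in recovered cells.

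Folr2 was higher in recovered than in untreated cells by 2.51 ± 0.34 (5.69-fold, limma adjusted p = 0.000144), than in tolerant cells by 2.29 ± 0.34 (4.91-fold, adjusted p = 0.00107) and than in acute cells by 2.14 ± 0.34 (4.42-fold, adjusted p = 0.0159). Within replicate numbers the excess over untreated cells ran from 1.47 to 3.07 and that over acute cells from 1.54 to 2.69. The call against acute cells was lost without acute replicate 1, acute replicate 2, recovered replicate 1 or recovered replicate 2 (2.15, 1.92, 2.11 and 2.09, adjusted p = 0.0638, 0.0791, 0.0645 and 0.0531). Acute and tolerant cells differed from untreated cells by 0.36 (95% interval -0.37 to 1.10, adjusted p = 0.499) and 0.21 (-0.52 to 0.95, adjusted p = 0.734). Without untreated replicate 3 the acute value was 0.80 and called (adjusted p = 0.0341).

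The other genes of folate uptake and one-carbon metabolism went both ways. Of 15 measured, 2 rose and 5 fell in recovered against untreated cells, with a list median of -0.36. Over all genes 18.5% were higher and 16.9% lower there. With the replicate block 3 of the 15 rose and 8 fell. Shmt2, a mitochondrial enzyme of serine breakdown, fell by 1.60 on the log2 scale (adjusted p = 0.0065), and Fpgs, which adds the glutamate chain that keeps folate in the cell, fell by 1.23 (adjusted p = 0.00319). In tolerant against untreated cells 1 of the 15 rose and 5 fell, where 11.3% of all genes were higher and 8.63% lower. Among those that fell was Mthfd2, another mitochondrial folate enzyme (by 2.13, adjusted p = 0.00486).

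Cd68 encodes a heavily glycosylated endosomal and lysosomal protein of the LAMP family that is used as a general macrophage marker. Its brighter probe lies at 69477775 to 69477834 of chromosome 11 on mm9, minus strand. Cd68 read 16.35, 16.71 and 16.75 in untreated cells, 16.73, 16.70 and 16.74 in acute cells, 16.38, 16.50 and 16.51 in tolerant cells and 17.18, 17.28 and 17.13 in recovered cells. The recovered arrays lay at least 0.38 above all of the others, and the acute arrays lay above all tolerant arrays.

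Cd68 was higher in recovered than in untreated cells by 0.59 ± 0.14 (1.51-fold, limma adjusted p = 0.00592) and than in tolerant cells by 0.73 ± 0.14 (1.66-fold, adjusted p = 0.0043). The excess over acute cells, 0.47 ± 0.14, did not pass the test (95% interval 0.17 to 0.78, adjusted p = 0.12), and it was called with the replicate block (adjusted p = 0.0272). The other probe gave 0.74 ± 0.26 against untreated cells (adjusted p = 0.0469) and 0.86 ± 0.26 against tolerant cells (adjusted p = 0.0417). The call against untreated cells depended on the scaling of the arrays: it was lost with quantile normalization (0.39, adjusted p = 0.112), median centring (0.40, adjusted p = 0.079) and the authors' values (0.28, adjusted p = 0.135). Quantile normalization also ended the call against tolerant cells (0.52, adjusted p = 0.0619).

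Cd36 and Scarb1 are the class B receptors: CD36 takes up oxidised lipoproteins and long-chain fatty acids, and SR-BI exchanges cholesterol with high density lipoprotein. The Cd36 probe lies at 17288600 to 17288659 of chromosome 5 on mm9. Cd36 read 13.96, 14.04 and 13.50 in untreated cells, 14.34, 14.23 and 13.33 in acute cells, 13.57, 13.46 and 12.82 in tolerant cells and 14.16, 13.72 and 13.10 in recovered cells. Replicate 3, the array of the second scan day, was the lowest of each group, and the 4 groups overlapped.

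Limma called Cd36 in 0 of the 6 comparisons. The differences from untreated cells were 0.13 in acute cells (95% interval -0.60 to 0.87), -0.55 in tolerant cells (-1.29 to 0.19) and -0.17 in recovered cells (-0.91 to 0.56). With the replicate number as a block, which takes up the low replicate 3, Cd36 was lower in tolerant than in untreated cells (-0.55, adjusted p = 0.00973) and than in acute cells (-0.68, adjusted p = 0.00296), and higher in recovered than in tolerant cells (0.37, adjusted p = 0.0427). Within each replicate number the tolerant array lay below the untreated array, by -0.68 to -0.39, and below the acute array, by -0.77 to -0.51. With the authors' values limma called the difference from untreated cells in tolerant (-0.86, adjusted p = 0.000478) and recovered cells (-0.52, adjusted p = 0.00467). These values also called tolerant against acute cells (-0.65, adjusted p = 0.00231).

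Scarb1, whose probe lies at 125757483 to 125757542 of chromosome 5 on mm9, read 11.36, 11.26 and 11.23 in untreated cells, 10.98, 10.92 and 10.33 in acute cells, 10.91, 10.88 and 11.27 in tolerant cells and 11.01, 10.80 and 10.64 in recovered cells. Acute and recovered arrays lay below all untreated arrays. The differences from untreated cells were -0.54 ± 0.19 in acute cells (limma adjusted p = 0.0601) and -0.47 ± 0.19 in recovered cells (adjusted p = 0.0866), and neither passed the test. The acute value was called in 7 of the 12 other settings, among them the replicate block (adjusted p = 0.037) and the authors' values (-0.68, adjusted p = 0.00287). The recovered value was called in 3 of the 12, among them the authors' values (-0.71, adjusted p = 0.00185). The tolerant value was -0.26 (adjusted p = 0.412) and was called in 1 of the 12, with the authors' values (-0.45, adjusted p = 0.0338). The second probe gave -0.58 ± 0.26 in acute cells and was not called (adjusted p = 0.122).

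Stab1 encodes stabilin-1, a multidomain receptor that clears modified lipoprotein, matrix fragments and dying cells. Its probe lies at 31952288 to 31952347 of chromosome 14 on mm9. Stab1 read 13.79, 13.29 and 14.43 in untreated cells, 13.16, 12.84 and 13.41 in acute cells, 13.12, 13.27 and 13.77 in tolerant cells and 14.06, 13.45 and 13.68 in recovered cells. The untreated arrays overlapped with those of all other groups. The acute value was -0.70 ± 0.29 (adjusted p = 0.101) and passed the test with the replicate block (adjusted p = 0.0206). It was called in 5 of the 12 other settings. The recovered value was -0.11 (95% interval -0.76 to 0.53, adjusted p = 0.798).

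Cd163, the receptor for haemoglobin bound to haptoglobin, was not well above background on any of the 12 arrays, where its probe read between 1.72 and 2.25. It was not tested. The genes that handle haemoglobin and haem after uptake were all measured. Slc40a1, the iron exporter ferroportin, was the 1 of 9 that fell in recovered against untreated cells (by 2.07 on the log2 scale, adjusted p = 0.000238). It also fell by 2.15 in acute cells (adjusted p = 0.000212) and by 1.02 in tolerant cells (adjusted p = 0.0318). Over all genes 16.9% were lower in recovered against untreated cells. With the replicate block 1 of the 9 rose and 4 fell in recovered cells.

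**Figure D3:**
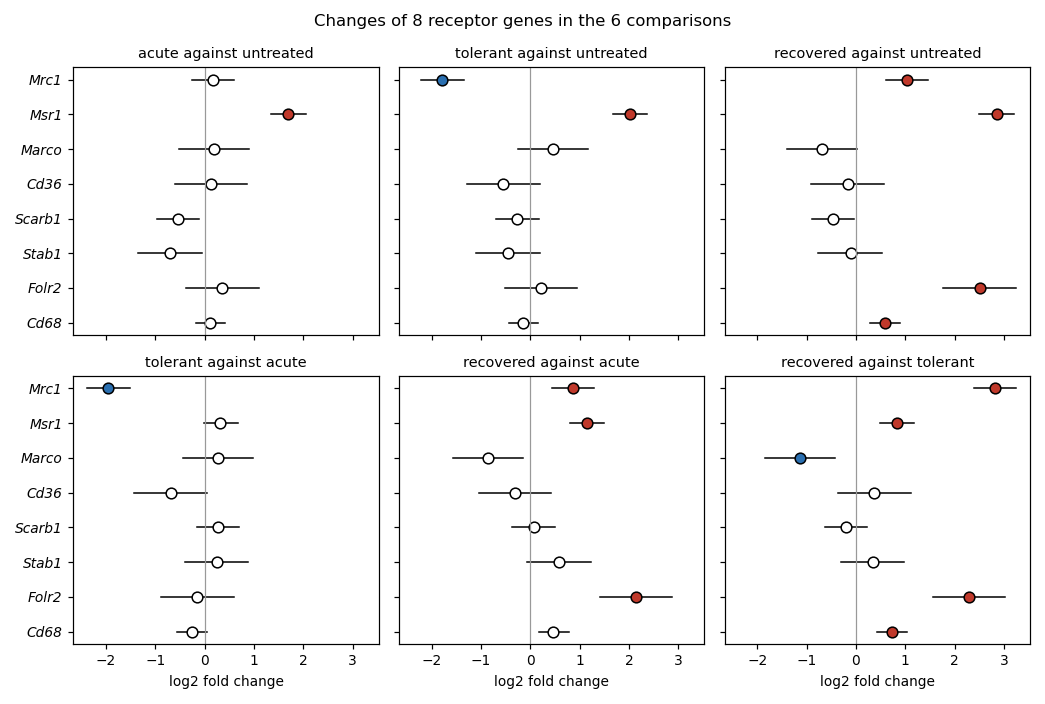
Log2 fold change (horizontal axis) of the 8 measured receptor genes in each of the 6 comparisons, with 95% intervals of the limma fit as lines, called rises in red, called falls in blue and uncalled values in white. The fall of Mrc1 in tolerant cells of 1.78 and the rises of Msr1, Folr2 and Mrc1 in recovered cells stand clear of 0, and the intervals of Cd36 include 0 in all 6 panels.

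Over the 8 measured receptors, 1 was called in acute against untreated cells, as higher, where 29.3% of all genes were called (14.3% higher and 15% lower). In tolerant against untreated cells 1 was higher and 1 lower, where 19.9% of all genes were called (11.3% higher and 8.63% lower). In recovered against untreated cells 4 were higher, where 35.4% of all genes were called (18.5% higher and 16.9% lower). In tolerant against acute cells 1 was lower, where 22.7% of all genes were called (12% higher and 10.6% lower). In recovered against acute cells 3 were higher, where 2.04% of all genes were called (1.46% higher and 0.582% lower). In recovered against tolerant cells 4 were higher and 1 lower, where 20.6% of all genes were called (11% higher and 9.62% lower). The members' median difference was 0.53 in recovered against acute cells and 0.55 in recovered against tolerant cells, beside medians of 0.04 and 0.09 over all genes. In recovered against untreated cells the medians were 0.24 and 0.06. The arrays of the 2 groups did not overlap for 6 of the 8 receptors in recovered against acute cells, where 19.7% of all genes had no overlap, and for 6 in recovered against untreated cells, where 47.7% had no overlap. Such receptors numbered 2 in acute and 2 in tolerant against untreated cells (38.7% and 34.5% of all genes), 3 in tolerant against acute cells (38.5%) and 5 in recovered against tolerant cells (44%). The comparisons share their arrays, so their counts are not independent. The moderated F test over the 4 groups called Mrc1, Msr1, Folr2 and Cd68 (adjusted p = 5.18e-06, 9.69e-07, 0.000362 and 0.00602), and it called 40.1% of all genes.

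The count of 3 in recovered against acute cells rested on single arrays. It was 1 without acute replicate 1 or recovered replicate 2. Without acute replicate 2 or recovered replicate 1 limma called 0, with 4 and 5 receptors at an unadjusted p under 0.05. In acute against untreated cells the count was 2 without untreated replicate 2, untreated replicate 3 or acute replicate 1, and 3 with the replicate block. In tolerant against acute cells the count was 2 without acute replicate 3 and with the replicate block.

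Among 12 arrays, the transcripts with the profiles most like those of the 4 receptors that passed the F test were named by the smallest root mean square difference of centred log2 values. For Mrc1 these included Fkbp9, a prolyl isomerase of the endoplasmic reticulum (0.37), and Emp1, a membrane protein (0.40). Fkbp9 had group means of 8.38 in untreated, 8.80 in acute, 7.37 in tolerant and 9.31 in recovered cells. For Msr1 the nearest were Sod2, the mitochondrial superoxide dismutase (0.19), Tgm2, tissue transglutaminase (0.24), and a transcript without a gene symbol (0.24). Sod2 rose from 15.48 in untreated to 17.07 in acute, 17.25 in tolerant and 17.89 in recovered cells. For Folr2 the nearest with a symbol were Col18a1, a basement membrane collagen (0.41), and Plxdc2, a membrane receptor (0.50), and for Cd68 it was Lama5, a laminin chain (0.12). Among the receptors themselves Scarb1 and Stab1 had the smallest difference (0.42) and Folr2 and Marco the largest (1.5). These likenesses are descriptions over arrays that share a group structure and a scaling.

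Other scavenger receptors outside the 9 were measured for 10 of 14 genes. Of these 10, 3 rose in acute cells, 4 rose and 1 fell in tolerant cells, and 4 rose and 2 fell in recovered cells, each against untreated cells. Over all genes 29.3%, 19.9% and 35.4% were called in these comparisons, so the acute count was near that share. With the replicate block 5 rose in acute cells. Olr1, the oxidised lipoprotein receptor LOX-1, was not well above background on the untreated arrays and was at least 15.7-fold higher in acute cells (adjusted p = 5.48e-05), 20.1-fold in tolerant cells (adjusted p = 7.64e-05) and 21.4-fold in recovered cells (adjusted p = 2.85e-05). These bounds hold for the processed signal. With normexp background the log2 changes were 2.29, 2.56 and 2.64, and with the authors' values 2.65, 2.93 and 3.02, all of them called. Olr1 passed the filter on dim probes only through the LPS groups, so its rises are not independent of that filter. Scarf1, an endothelial and myeloid receptor for acetylated lipoprotein, rose by 1.49 ± 0.25 in acute cells (adjusted p = 0.000951) and by 2.07 ± 0.25 in recovered cells (adjusted p = 7.55e-05). Cxcl16, a transmembrane chemokine that also binds oxidised lipoprotein, rose by 1.44 ± 0.22 in tolerant cells (adjusted p = 0.000884) and by 1.79 ± 0.22 in recovered cells (adjusted p = 8.3e-05). Cd5l, a secreted member of the cysteine-rich scavenger family, fell by 1.28 in tolerant cells (adjusted p = 0.00857).

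Receptors and bridging molecules for dying cells, which share ligands with Stab1 and Cd36, were called in both directions. Of 13 measured, 4 rose and 4 fell in tolerant against untreated cells, and in recovered against tolerant cells 7 rose and 2 fell, with a list median of 0.68 beside 0.09 over all genes. Over all genes 19.9% were called in the former comparison and 20.6% in the latter. With arrays centred on their medians 3 of the 13 rose and 2 fell in the latter. Tyro3, a receptor tyrosine kinase for Gas6 and protein S, rose by 3.34 ± 0.27 in acute cells (adjusted p = 3.48e-06) and by 2.59 ± 0.27 in recovered cells (adjusted p = 2.42e-05), each against untreated cells, and was lower in tolerant than in acute cells (-3.34, adjusted p = 2.94e-05). Itgb3, an integrin chain that pairs with Itgav, fell by 3.43 in tolerant cells (adjusted p = 2.04e-05) and by 1.92 in recovered cells (adjusted p = 0.000596). Itgav rose by 2.19 ± 0.28 in tolerant cells (adjusted p = 0.000243) and by 2.29 ± 0.28 in recovered cells (adjusted p = 7.18e-05). In recovered against acute cells, where 2.04% of all genes were called, limma called 0 of the 13. Of these 13, 7 had an unadjusted p under 0.05, and with the replicate block 2 rose and 3 fell.

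Lipid handling genes downstream of the class A and B receptors went both ways. Of 16 measured, 3 rose and 5 fell in recovered against untreated cells, where 35.4% of all genes were called. In tolerant against untreated cells 3 rose and 3 fell, where 19.9% of all genes were called. With the replicate block 3 rose and 8 fell in tolerant against untreated cells. Ch25h, which makes 25-hydroxycholesterol, rose by 4.51 ± 0.69 in acute cells (adjusted p = 0.000468), by 3.06 ± 0.69 in tolerant cells (adjusted p = 0.00901) and by 4.87 ± 0.69 in recovered cells (adjusted p = 0.000227). Abcg1, which exports cholesterol to high density lipoprotein, fell in recovered cells by 3.03 against untreated cells (adjusted p = 0.00038), by 2.49 against acute cells (adjusted p = 0.0311) and by 1.64 against tolerant cells (adjusted p = 0.0295). Fabp4, a fatty acid carrier, was lower in tolerant than in untreated cells by 0.84 on the log2 scale (-0.84, adjusted p = 0.0225) and higher in recovered than in tolerant cells by 1.30 ± 0.23 (adjusted p = 0.00297).

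**Figure D4:**
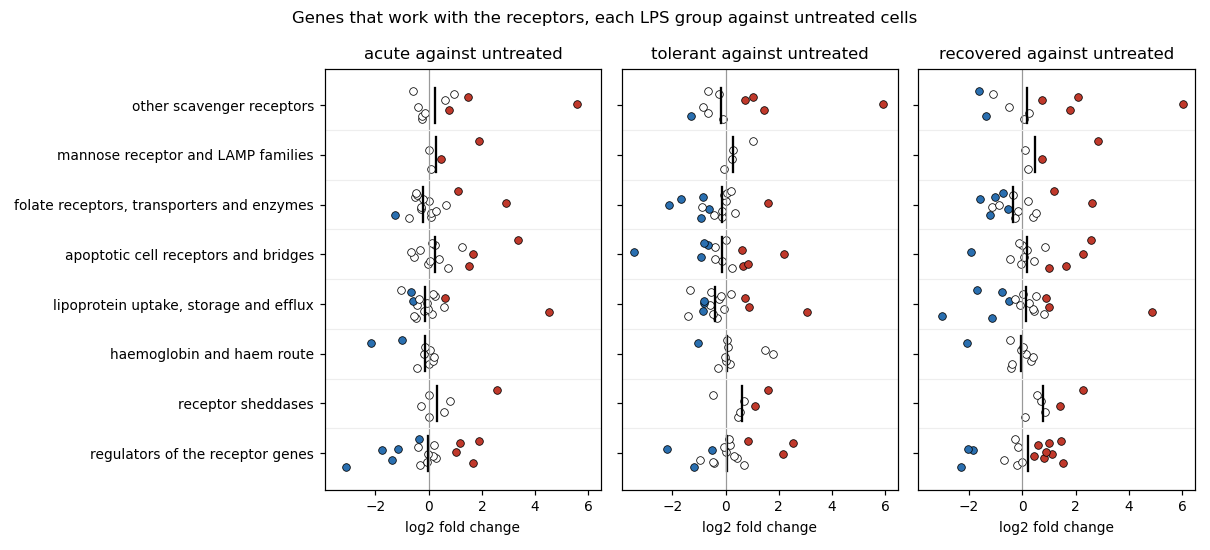
Log2 fold change (horizontal axis) of the measured genes of 8 lists around the receptors, for each LPS group against untreated cells, with called rises in red, called falls in blue, uncalled genes in white and list medians as vertical bars. Each list holds both called and uncalled genes in each panel, except that the mannose receptor and LAMP families hold 0 called genes in tolerant cells. The medians lie between -0.38 and 0.77.

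Proteases that release receptors from the surface and their cofactors included Rhbdf2, which carries ADAM17 to the surface and rose by 2.56 ± 0.28 in acute, 1.58 ± 0.28 in tolerant and 2.26 ± 0.28 in recovered cells (adjusted p = 3.85e-05, 0.00218 and 8.66e-05). Of 6 measured genes in this list 1 rose in acute, 2 in tolerant and 2 in recovered cells, against 3, 5 and 5 that rose with the replicate block. Over all genes 14.3%, 11.3% and 18.5% were higher in these comparisons without the block. Adam8 was higher in recovered than in acute cells (1.70 ± 0.24, adjusted p = 0.0109).

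Transcription factors listed as possible regulators of these receptor genes were measured for 16 of 17. Their action on the receptor genes was not tested. In recovered against untreated cells 8 rose and 3 fell, against 4 rises and 4 falls with quantile normalization and 3 and 4 with median centring. In the fit reported 35.4% of all genes were called in that comparison. Pparg, a nuclear receptor known to raise Cd36 and Mrc1 expression, fell by 2.19 in tolerant cells (adjusted p = 0.00138) and by 2.05 in recovered cells (adjusted p = 0.00107). Cebpa fell by 3.11 in acute cells (adjusted p = 2.18e-05) and by 2.29 in recovered cells (adjusted p = 0.000189). Nr1h3, the oxysterol receptor LXR alpha, rose by 2.16 ± 0.28 in tolerant cells (adjusted p = 0.000279). Spic, a factor of red pulp macrophages, rose by 2.53 ± 0.26 in tolerant cells (adjusted p = 4.64e-05). Klf4, a factor linked to alternative activation, was lower in tolerant than in acute cells (-2.12, adjusted p = 0.000145) and higher in recovered than in tolerant cells (1.96 ± 0.23, adjusted p = 0.000331).

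Markers of other cell types moved with some of these groups. The summed level of the erythroid and platelet markers was 6170 to 13400 in untreated, 8220 to 16600 in acute, 11700 to 25400 in tolerant and 35400 to 51300 in recovered cells, the group in which Folr2, Msr1, Mrc1 and Cd68 were highest. Of these markers Alas2 and Itga2b were well above background on none of the arrays, while Pf4, a platelet chemokine, rose from 12.97 in untreated to 15.36 in recovered cells (adjusted p = 0.000558). The summed level of the dendritic cell markers was 65.8 to 119 in untreated and 1130 to 3100 in the LPS groups. Xcr1 was well above background on none of the arrays. Flt3 was so on no array of untreated, tolerant or recovered cells, Cd209a on none of untreated, acute or tolerant cells, and Ccr7 on none of untreated cells. The summed level of the stromal markers was 85.4 to 142 in untreated and 213 to 662 in the LPS groups. The endothelial markers are of a cell type that also makes Stab1 and Mrc1 in tissue. They summed to 8020 to 13700 in untreated, 8730 to 14900 in acute, 7760 to 9410 in tolerant and 10400 to 14800 in recovered cells. Tek and Emcn were well above background on none of the arrays. Of the 3 endothelial markers tested by limma, 0 were higher and 1 lower in recovered against tolerant cells, opposite to the sum. The neutrophil markers summed to 4350 to 6600 in untreated, 4710 to 6480 in acute, 4510 to 7660 in tolerant and 6670 to 7330 in recovered cells. Of the 3 that were tested, S100a8 and Camp were higher in tolerant (2.61 and 2.25, adjusted p = 0.00025 and 0.000132) and recovered cells (1.5 and 1.66, adjusted p = 0.00455 and 0.000501) than in untreated cells, and Elane was called in neither (-0.34 and 0.18). The osteoclast markers summed to 30100 to 56800 in untreated and 33500 to 63900 in acute cells. Their sum was 54300 to 75200 in tolerant and 15700 to 28400 in recovered cells. Calcr was well above background on none of the arrays. Of the 4 osteoclast markers tested by limma, 0 were higher and 1 lower in tolerant against untreated cells. In recovered against tolerant cells 1 was higher and 1 lower. The part of these marker levels in the receptor results was not tested.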

How the data were processed

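Transcript levels were measured on 12 single-colour Agilent arrays, 3 in each of 4 groups. The intensity values deposited for each array were background-subtracted and detrended by Agilent Feature Extraction 10.7.3.1, per the file headers, with probe positions on mm9. The authors' deposited matrix of log2 values has the same median (5.339) in all columns, and for 12 of 12 columns the array with the highest correlation was the column's own (lowest r 0.973). It was not centred by gene, its normalization is not given in the sources used here, and it served as an alternative. The submitters' processing notes name limma without a version.

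The log2 processed intensity minus the 75th percentile of the array (8.04 to 9.385), plus the mean of the percentiles, was the level. Of 62976 spots 59305 were not controls and carried 55681 probes. Outlier spots (135 to 233 an array) were left out. A probe was kept if the 3 arrays of any group read it well above background (28046 probes), and the brightest stood for a gene. Symbols were updated through reference names of GRCm38.p6 by accession (26425 probes), symbol (3988) or synonym (826), and 24442 probes were not matched.

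All 12 arrays were fitted with limma 3.58.1 in R 4.3.3, 8 residual and 3.06 prior degrees of freedom, after a test on simulated data. For "at least" folds the dim group was given, per array, the lowest signal that counted as well above background or the probe's own signal if that was higher. Summed marker levels are sums of linear levels. Figures were drawn in Python 3.11.15 with matplotlib 3.10.9. There were 3 slides and 2 scan days: replicate 3 of all groups on the third slide and second day, replicate 2 of all groups with recovered replicate 1 on the second slide, and replicate 1 of the other groups on the first. Deviations from the group means were correlated across genes between arrays of different groups, with r between 0.275 and 0.773 (median 0.449) for the 18 pairs that share a number and between -0.653 and 0.337 for the 36 that do not. Arrays that share a number therefore vary together. Apart from recovered replicate 1 the number goes with the slide, and replicate 3 with the second scan day. A pairing by experiment and an effect of slide or scan day cannot be told apart. Blocked values are given where they change a call. P-values measure the spread between these arrays, since the labels do not say whether experiments used separate animals.

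The members, the other gene lists and the markers were chosen with earlier results of these data known. All members were named. From other lists, up to 3 called genes with the largest change per comparison were eligible. Profile likeness was computed for members that passed the F test. Some genes that this rule names are not reported here.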

Additional observations from a re-analysis of the deposited data

Results flagged for a closer look

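Each LPS group shares the untreated arrays as control, so a comparison between 2 LPS groups is the direct test of whether their changes from untreated cells differ. By that test, with limma adjusted p over all genes under 0.05, 9 differences of receptor genes stood out. Over all genes 22.7% were called in tolerant against acute, 2.04% in recovered against acute and 20.6% in recovered against tolerant cells. Mrc1 differed by -1.95 in tolerant against acute, 0.87 in recovered against acute and 2.82 in recovered against tolerant cells. Msr1 differed by 1.15 in recovered against acute and 0.83 in recovered against tolerant cells. Marco differed by -1.14 in recovered against tolerant cells, and by -0.68 without recovered replicate 3. Folr2 differed by 2.14 in recovered against acute and 2.29 in recovered against tolerant cells, and Cd68 by 0.73 in recovered against tolerant cells. Of the 12 fits that left out 1 array, the recovered against acute calls held in 1 for Mrc1, 10 for Msr1 and 8 for Folr2. The Marco call held in 10, and the other calls held in all 12.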

How the results depend on the processing

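Values were recomputed under 12 other settings and without each of the 12 arrays. The number of receptor genes called in acute against untreated cells, 1, became 3 with quantile normalization, the authors' values, the replicate block or the slide block, and 2 with median centring, normexp background, the mean of a gene's probes, an intensity trend in the variance prior or without the second scan day. In tolerant against untreated cells 2 became 5 with the authors' values. In tolerant against acute cells 1 became 3 with the authors' values or the slide block, and 2 with the replicate block or without the second scan day. Over all genes, the authors' values gave 9310 calls for acute, 7083 for tolerant and 11138 for recovered against untreated cells (5996, 4071 and 7243 in the fit reported), 7675 for tolerant and 1203 for recovered against acute cells (4640 and 418) and 7409 for recovered against tolerant cells (4222). The replicate block gave 7674, 9105, 2198 and 9230 for tolerant against untreated cells, tolerant or recovered against acute cells, and recovered against tolerant cells, and the slide block gave 8068, 9608, 1600 and 8233 for the same comparisons and 9300 for acute against untreated cells. Recovered against acute cells gave 252 calls with median centring, 99 with no filter on dim probes and 196 with only the 2 groups compared. Leaving out 1 array gave 5011 to 6009, 2914 to 4311, 5861 to 7533, 3125 to 4820, 25 to 446 and 2579 to 4510 calls over all genes for acute, tolerant and recovered against untreated, tolerant and recovered against acute, and recovered against tolerant cells. The same fits gave 1 to 2, 2 to 2, 4 to 5, 1 to 2, 0 to 3 and 4 to 5 receptor genes. Recovered against acute cells fell to 25 without acute replicate 2, 48 without recovered replicate 1, 49 without acute replicate 1, 53 without recovered replicate 2, 106 without recovered replicate 3, 174 without untreated replicate 2 and 196 without tolerant replicate 2. Recovered against tolerant cells fell to 2579 without recovered replicate 1, 2714 without tolerant replicate 1, 2769 without tolerant replicate 2 and 2770 without recovered replicate 3. The causes were not tested. The share of called genes that were higher in recovered against untreated cells, 52.3%, was 40.2% with median centring, 38.9% with the authors' values and 42.1% with quantile normalization. In recovered against tolerant cells, 53.4% became 32.8% with median centring and 42.2% with the authors' values. The authors' values also gave 37.3% in acute (48.8%) and 40.8% in tolerant (56.6%) against untreated cells and 49.8% in recovered against acute cells (71.5%), where quantile normalization gave 60.9%. Median centring moved the median of all genes in recovered against untreated cells from 0.062 to -0.132. Sign changes were limited to differences that were not called. In acute against untreated cells these 2 scalings, quantile and authors', turned Mrc1 to -0.03 and -0.03, Marco to -0.02 and -0.11, Cd36 to -0.21 and -0.21 and Cd68 to -0.09 and -0.15, and the authors' values turned Folr2 to -0.02, and to -0.11 in tolerant against untreated cells. Scarb1 in recovered against acute cells turned to -0.03 with median centring or the authors' values and to -0.05 without the second scan day, which also turned Stab1 in recovered against untreated cells to 0.21 and Scarb1 to -0.06 in tolerant against acute cells and to 0.01 between recovered and tolerant cells. Leaving out 1 array turned 10 such values. Against untreated cells the ranges were -0.05 to 0.45 for Cd36 and -0.01 to 0.19 for Cd68 in acute cells, -0.02 to 0.65 for Folr2 in tolerant cells, and -0.42 to 0.11 for Cd36 and -0.38 to 0.18 for Stab1 in recovered cells. Against acute cells they were -0.37 to 0.07 for Folr2 in tolerant cells and -0.14 to 0.19 for Scarb1 in recovered cells. Of 48 receptor values, 41 kept direction and side of the threshold with the replicate block and 7 became called, each given beside its result. Signal over background limits Cd163, for which no difference could be read.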
